A study of Mus musculus with 24 samples.

Results

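A set of 10 miRNAs related by sequence or by a shared gene cluster, the members, was followed. The libraries were small RNA libraries of exosome-enriched fractions (EEFs) from the mouse hippocampus. They were miR-25-3p and miR-92b-3p, whose average the study used to normalise its qPCR of EEF miRNAs, and their relatives miR-92a-3p, miR-93-5p, miR-106b-5p, miR-17-5p, miR-20a-5p, miR-18a-5p, miR-19a-3p and miR-19b-3p. The members were chosen by name and family, and they are 10 of 1073 miRNA names with at least 1 read in the files. Male C57BL/6 mice (C57BL/6OlaHsd in the study's methods), 6 to 9 weeks old, had received 0.3 μg of the excitotoxin kainic acid (KA) in 0.2 μl, or PBS as control, into the basolateral amygdala, and midazolam was later used to end the seizures. EEFs were prepared from pooled hippocampi, taken after perfusion with PBS, by ultracentrifugation (UC) or by a precipitation kit (Kit), at 24 h or 2 weeks (2w) after the injection. Each of the 8 combinations of method, treatment and time had 3 libraries, and all EEFs were treated with RNase A before RNA extraction. Each library was a pool of hippocampi, so the spread between libraries is a spread between pools, and pools for UC held more hippocampi than pools for the kit.

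Polycistronic miRNA genes are cut into several hairpins that are transcribed together. The miR-17/92 cluster, its paralogous clusters and the unlinked miR-92b are known for promoting proliferation and survival, and members are found in neural progenitors, in neurons and in blood cells. A miRNA recognises its targets mainly through the seed, bases 2 to 8 from the 5′ end, so members with the same seed are expected to share many targets. In a fraction that should contain vesicles from many cell types, a miRNA that keeps a steady level from library to library can be used as a reference for the others.

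The mature sequences are shown because members with the same or nearly the same seed differ from each other by few bases. Members with unlike seeds differ widely, as miR-25-3p and miR-19a-3p do at 18 of 22 compared bases. They are from RefSeq (GRCm38.p6), were found for 10 of 10 members, run 5′ to 3′, and have the seed in capitals. The first group shared the seed AUUGCAC.
miR-25-3p: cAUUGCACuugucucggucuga
miR-92a-3p: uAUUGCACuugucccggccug
miR-92b-3p: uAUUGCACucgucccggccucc
The second group had AAAGUGC, and in miR-18a-5p AAGGUGC.
miR-93-5p: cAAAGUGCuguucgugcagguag
miR-106b-5p: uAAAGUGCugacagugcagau
miR-17-5p: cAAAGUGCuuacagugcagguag
miR-20a-5p: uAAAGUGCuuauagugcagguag
miR-18a-5p: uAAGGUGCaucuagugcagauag
The third group had GUGCAAA.
miR-19a-3p: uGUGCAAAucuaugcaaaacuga
miR-19b-3p: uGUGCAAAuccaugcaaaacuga

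Counted from 1 at the 5′ end, miR-92a-3p and miR-92b-3p differed over 21 compared bases by U10C and G21C, with the base of miR-92a-3p first. miR-25-3p and miR-92a-3p differed by C1U, U14C and U18C, and miR-19a-3p and miR-19b-3p by U11C alone. How the authors' counting treated reads that match more than one hairpin is not given in the sources used here, so reads of the closest pairs could be divided between names.

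The members came from 4 chromosomes. Mature miR-25-3p lies at chr5:138165332-138165353, miR-93-5p at chr5:138165574-138165596 and miR-106b-5p at chr5:138165787-138165807, all on the minus strand inside Mcm7, a gene for a DNA replication helicase subunit. The hairpins Mir25 and Mir93 overlap an exon of at least 1 annotated Mcm7 transcript, and Mir106b lies within introns. On the plus strand of chromosome 14, miR-17-5p (chr14:115043684-115043706), miR-18a-5p (chr14:115043867-115043889), miR-19a-3p (chr14:115044048-115044070), miR-20a-5p (chr14:115044183-115044205), 1 copy of miR-19b-3p (chr14:115044358-115044380) and 1 copy of miR-92a-3p (chr14:115044476-115044496) lie in this order. Their hairpins overlap an exon of at least 1 annotated transcript of the noncoding host gene Mir17hg. The other copies of miR-19b-3p (chrX:52741991-52742013) and miR-92a-3p (chrX:52741854-52741874) lie on the minus strand of chromosome X. miR-92b-3p is at chr3:89227126-89227147 on the minus strand, with no host gene in the annotation.

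The deposited counts were 85436 to 169639 reads per UC library and 154884 to 676726 per kit library, so 1 read was worth 5.89 to 11.7 CPM (counts scaled to the same library total in each sample) with UC and 1.48 to 6.46 CPM with the kit before scaling. Levels below are CPM scaled by TMM factors over all 24 libraries. A miRNA read covers the whole molecule, so CPM of different members were compared without a correction for length. Replicates differed by more than counting error, with chi-square per degree of freedom of 5.12 to 156 over the 24 pairs of libraries of the same group. The library labelled UC KA 2w replicate 3 stood apart. miR-204-5p, abundant in choroid plexus, was at 3420 CPM there and between 283 and 1028 CPM in the other UC libraries. miR-486b-5p, abundant in red blood cells, was at 1535 CPM against 292 to 706 CPM. No other choroid plexus or red blood cell name searched had a read in the UC KA 2w libraries. Of the names in the counts, 1 of 2 and 1 of 5 were read there. The KA and time differences, the interactions, the joint level and the M of the references that involve this library are therefore also given without it, while scaling to the references was not repeated without it.

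Together the members took 0.141% of all UC reads (2204 reads, 0.0928 to 0.210% per library) and 0.167% of all kit reads (6382 reads, 0.140 to 0.188%). The references miR-25-3p and miR-92b-3p held 54.8% of the members' UC reads and 62.2% of their kit reads. All 3 members with seed AUUGCAC together held 71.8% and 79.9%. The mean level of miR-25-3p was 424 CPM ± 208 (SD, n = 12) with UC and 403 CPM ± 137 (SD, n = 12) with the kit. That of miR-92b-3p was 345 CPM ± 164 (SD, n = 12) and 583 CPM ± 138 (SD, n = 12). In the files they are named mmu-mir-25-3p and mmu-mir-92b-3p, and their relatives mmu-mir-92a-3p, mmu-mir-93-5p, mmu-mir-106b-5p and so on. By mean level among all miRNAs, miR-25-3p was 105th with UC and 112th with the kit, and miR-92b-3p 115th and 96th.

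The order of the members differed between the methods. With UC it was miR-25-3p, miR-92b-3p, miR-93-5p (259 CPM ± 69.8, SD, n = 12) and miR-92a-3p (244 CPM ± 91.7), followed by miR-19b-3p (117 CPM ± 42.6). miR-25-3p had more reads than miR-92b-3p in 10 of 12 UC libraries, miR-92b-3p more than miR-93-5p in 7, miR-93-5p more than miR-92a-3p in 7 and miR-92a-3p more than miR-19b-3p in 10, so neighbours in the middle of this order did not differ beyond their spread. With the kit the order was miR-92b-3p, miR-25-3p, miR-92a-3p (292 CPM ± 42.9, SD, n = 12), miR-93-5p (172 CPM ± 26.9) and miR-19b-3p (117 CPM ± 45.6). Here miR-92b-3p exceeded miR-25-3p in 11 of 12 libraries, miR-25-3p exceeded miR-92a-3p in 9, miR-92a-3p exceeded miR-93-5p in 12 and miR-93-5p exceeded miR-19b-3p in 10.

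**Figure D1:**
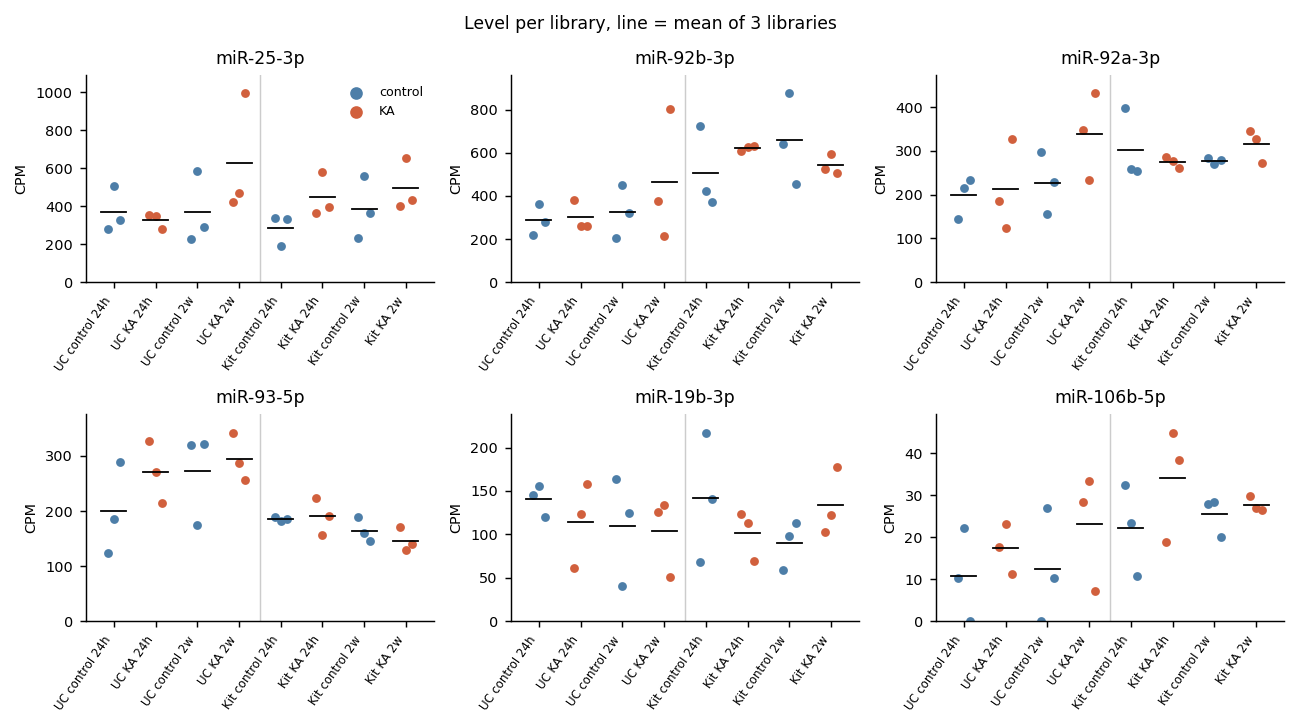
Level of 6 members in each library (y axis, CPM with TMM scaling) by method, treatment and time (x axis), with 3 points a group and their mean as a line. miR-92b-3p is higher and miR-93-5p lower on the kit side, and in UC KA 2w the highest points of miR-25-3p (994 CPM), miR-92b-3p (804 CPM) and miR-92a-3p (431 CPM) are from the same library, replicate 3.

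Members transcribed together were read at very different levels. From the chromosome 5 cluster, 1675 reads of miR-25-3p, 642 of miR-93-5p and 106 of miR-106b-5p came from kit libraries, beside 670, 400 and 26 from UC libraries. From the chromosome 14 cluster, miR-92a-3p had 1129 kit and 376 UC reads and miR-19b-3p 435 and 175, both with a further copy on chromosome X. The members with a copy on chromosome 14 alone were scarce, with 34 kit and 6 UC reads of miR-17-5p, 27 and 8 of miR-20a-5p, 34 and 6 of miR-19a-3p, and 6 and 0 of miR-18a-5p. For miR-18a-5p with UC, 3 reads correspond to 17.7 to 35.1 CPM per library before scaling, so a lower level could leave a single library without a read. All UC libraries together, also with 0 reads, set a lower limit that was not computed. No fold change is given for any of these 4 members.

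The opposite arms of the member hairpins were rarer with an exception. Of 12 opposite arms searched by name, 7 had a read with the kit and 5 with UC, with 312 and 192 reads in all. miR-106b-3p, from the same hairpin as miR-106b-5p, was the exception, with 250 kit and 143 UC reads (60.1 CPM ± 26.6 and 92.5 CPM ± 29.0, SD, n = 12), more than its member arm. Of 10 names from the paralogous miR-106a cluster and miR-32, 5 were read with the kit (99 reads) and 3 with UC (6 reads), and miR-32-5p made up 80 of the kit reads. No read carried the names miR-106a-5p or miR-106a-3p.

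KA was compared with PBS within each method and time to ask whether status epilepticus moved the references or their relatives. Differences are log2 values fitted by edgeR, whose quasi-likelihood p-values were adjusted by Benjamini-Hochberg over all miRNAs tested (420 with UC, 520 with the kit), and a member was called at an adjusted p under 0.05. Of the 10 members, 7 were tested with UC and 9 with the kit. None of them was called at UC 24h (0 of 7; 0.476% of all miRNAs tested were called), UC 2w (0 of 7; 0.952%), Kit 24h (0 of 9; 0%) or Kit 2w (0 of 9; 0%), and DESeq2 and limma-voom also called 0. The samples' independence beyond separate pools is not stated, so p-values measure the spread between these libraries. At an unadjusted p under 0.05 the counts were 0, 1, 0 and 0 members, where 2.86%, 7.86%, 4.62% and 2.69% of all miRNAs passed. Groups of 3 and 3 libraries did not overlap in CPM for 9.05%, 10.2%, 9.42% and 5.19% of all miRNAs, and among the members for miR-25-3p at Kit 24h.

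At UC 24h, miR-25-3p was at 280, 506 and 329 CPM in controls and 354, 347 and 282 CPM after KA, and the groups overlapped. miR-92b-3p was at 218, 364 and 281 CPM in controls and 380, 262 and 260 CPM after KA. The fitted log2 differences were −0.18 (SE 0.39) and 0.06 (SE 0.41), with 95% intervals of −0.96 to 0.60 and −0.76 to 0.88. miR-92a-3p differed by 0.06 (SE 0.42), miR-93-5p by 0.43 (SE 0.39) and miR-19b-3p by −0.31 (SE 0.50) on the log2 scale, and none was called.

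At UC 2w, miR-25-3p was at 227, 585 and 290 CPM in controls and at 422, 468 and 994 CPM after KA, so that the control replicate 2 lay above KA replicates 1 and 2. Its fitted log2 difference was 0.75 (SE 0.37, unadjusted p = 0.0487, adjusted p = 0.577, edgeR), a 1.68-fold higher mean. Without UC KA 2w replicate 3 it was 0.20 on the log2 scale, and without control replicate 2 it was 1.28, with adjusted p = 0.988 and 0.243. These omissions also gave the highest and lowest unadjusted p of miR-25-3p over all alternatives tried, 0.589 and 0.00393 (edgeR). With a replicate block it was 0.0214 (edgeR). With RLE factors, library size only, DESeq2 or limma-voom, 0 members had an unadjusted p under 0.05. The same held with no filter, with a stricter filter and with only the 6 libraries compared. miR-92b-3p was at 203, 451 and 321 CPM in controls and 376, 214 and 804 CPM after KA, with a log2 difference of 0.50 (SE 0.39, adjusted p = 0.734) that became −0.19 without UC KA 2w replicate 3. miR-92a-3p, with the same seed, was at 297, 155 and 228 CPM in controls and 348, 234 and 431 CPM after KA. Its log2 difference was 0.57 (SE 0.39, adjusted p = 0.706, edgeR), and 0.34 without UC KA 2w replicate 3. miR-93-5p differed by 0.13 (SE 0.38) and miR-19b-3p by −0.05 (SE 0.50) on the log2 scale.

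At Kit 24h, miR-25-3p was at 335, 188 and 333 CPM in controls and 364, 578 and 395 CPM after KA, so all 3 KA libraries lay above all 3 controls. The log2 difference was 0.65 (SE 0.37, unadjusted p = 0.0955, adjusted p = 0.839, edgeR), and 0.45 without control replicate 2 and 0.38 without KA replicate 2. miR-92b-3p, at 726, 422 and 373 CPM in controls and 609, 628 and 633 CPM after KA, overlapped and had a log2 difference of 0.30 (SE 0.33). miR-92a-3p (−0.13, SE 0.32), miR-93-5p (0.06, SE 0.33) and miR-19b-3p (−0.41, SE 0.43) had intervals that spanned 0. miR-451a, a red blood cell miRNA, was at 0 to 35.8 CPM in these controls and 13.5 to 52.8 CPM after KA, while the summed level of the whole red blood cell list was 667 to 851 CPM in controls and 537 to 766 CPM after KA. Their part in the values of miR-25-3p was not tested.

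At Kit 2w, miR-25-3p was at 231, 556 and 362.6 CPM in controls and 401, 653 and 434 CPM after KA (log2 difference 0.33, SE 0.37). miR-92b-3p pointed the other way, with 643, 876 and 455 CPM in controls and 525, 594 and 505 CPM after KA (−0.35, SE 0.33). Both groups overlapped for both references. Same-numbered KA and control libraries deviated together at Kit 2w, and within these pairs miR-25-3p was higher after KA in 3 of 3 and miR-92b-3p in 1 of 3. The share of all miRNAs higher in 3 of 3 pairs was not computed, so the pair counts here are descriptions only. Fitted with a replicate block, they differed by 0.34 and −0.32 on the log2 scale (adjusted p = 0.995 for each, edgeR). The remaining members with more than 10 reads in most libraries, miR-92a-3p (0.12, SE 0.32), miR-93-5p (−0.25, SE 0.34) and miR-19b-3p (0.51, SE 0.43, higher after KA in 3 of 3 pairs), also had intervals that spanned 0.

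Over the tested members, the median log2 difference was 0.06 at UC 24h, 0.50 at UC 2w, 0.09 at Kit 24h and 0.12 at Kit 2w, beside medians of 0.06, 0.02, 0.09 and −0.01 over all miRNAs tested. These medians include the fitted values of the scarce members that passed the filter. The median at UC 2w is the value of miR-92b-3p. Without UC KA 2w replicate 3 the difference of miR-92b-3p was −0.19, and the median over the members was not computed again. The UC fit held 3 opposite arms and the kit fit 4, and from the paralogous list the kit fit held miR-32-5p. None of these was called in any of the 4 comparisons.

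**Figure D2:**
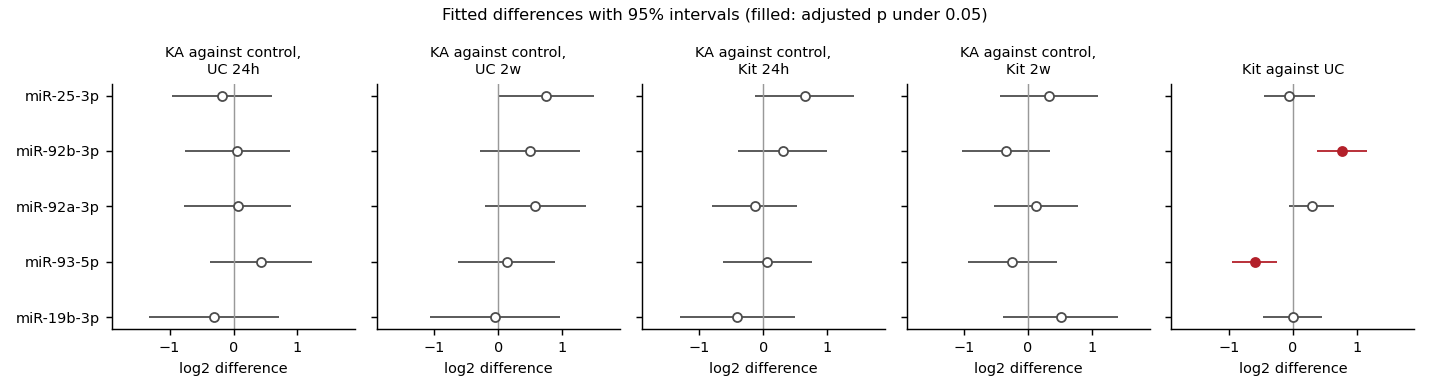
Fitted log2 differences (x axis) of 5 members (y axis) for KA against control in each method and time and for Kit against UC, with 95% intervals and filled red points for an adjusted p under 0.05. Filled points appear for miR-92b-3p (0.77) and miR-93-5p (−0.60) in Kit against UC.

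The time points were compared within method and treatment. No member was called at 2w against 24h in UC controls (0 of 7; 0% of all miRNAs), UC KA (0 of 7; 0.952%), kit controls (0 of 9; 0%) or Kit KA (0 of 9; 0.192%), and DESeq2 and limma-voom called 0 as well. In UC KA all 3 libraries at 2w were above all 3 at 24 h for miR-25-3p (10.5% of all miRNAs did not overlap), with a log2 difference of 0.93 (SE 0.38, unadjusted p = 0.0176, adjusted p = 0.308, edgeR). Without UC KA 2w replicate 3 it was 0.48. This was the only member with an unadjusted p under 0.05 in any of the 4 comparisons, where 4.05%, 10.5%, 3.65% and 3.08% of all miRNAs passed, and groups did not overlap for 10.2%, 10.5%, 8.46% and 5.77%. For miR-92b-3p the difference in UC KA was 0.62 (SE 0.39, adjusted p = 0.658, edgeR), and 0.032 without UC KA 2w replicate 3. In UC controls the difference of miR-25-3p was 0.00 and that of miR-92b-3p 0.18 (SE 0.38 and 0.40). In kit controls they were 0.50 and 0.46 (SE 0.37 and 0.33), and in Kit KA 0.18 and −0.19 (SE 0.37 and 0.33). In Kit KA miR-92b-3p was lower at 2w in all 3 libraries, at 505 to 594 CPM against 609 to 633 CPM, where 5.77% of all miRNAs did not overlap. In kit controls the scarce miR-17-5p had 2 to 4 reads a library at 24 h and 0 to 2 at 2w, with groups that did not overlap as CPM (8.46% of all miRNAs).

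Whether the KA difference itself depended on method or time was tested as an interaction. No member was called for Kit minus UC at 24 h or at 2w (0 of 7 each; 0% of 397 miRNAs each), nor for 2w minus 24 h with UC (0 of 7; 0.476%) or with the kit (0 of 9; 0%), and none had an unadjusted p under 0.05, where 2.27%, 3.53%, 6.9% and 3.27% of all miRNAs passed, in this order. For miR-25-3p the interaction was 0.82 (SE 0.56) for Kit minus UC at 24 h and −0.38 (SE 0.55) at 2w on the log2 scale. For miR-92b-3p it was 0.24 (SE 0.55) and −0.79 (SE 0.54). For 2w minus 24 h, miR-25-3p had 0.93 (SE 0.54) with UC and −0.32 (SE 0.52) with the kit, and miR-92b-3p 0.44 (SE 0.56) and −0.65 (SE 0.47). Without UC KA 2w replicate 3, Kit minus UC at 2w was −0.027 for miR-25-3p and −0.28 for miR-92b-3p, and 2w minus 24 h with UC was 0.42 and −0.20.

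Of the references, miR-92b-3p was called between the methods and miR-25-3p was not. In a fit of all 24 libraries with treatment and time as covariates, 66.2% of 397 miRNAs were called, and 2 of the 7 tested members were among them. miR-92b-3p was higher with the kit by 0.77 on the log2 scale (SE 0.19, adjusted p = 0.000745, edgeR), or 1.70-fold. Of all miRNAs, 12.3% had UC and kit libraries that did not overlap, and none of the members did. The levels of miR-92b-3p were 203 to 804 CPM with UC (median 301) and 373 to 876 CPM with the kit (median 602), which overlapped. miR-93-5p was lower with the kit, with a log2 difference of −0.60 (SE 0.17, adjusted p = 0.00274), at 125 to 342 CPM (median 279) with UC and 129 to 224 CPM (median 176) with the kit. miR-25-3p, from the same cluster as miR-93-5p, differed by −0.06 (SE 0.20, 95% interval −0.46 to 0.34, adjusted p = 0.818).

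miR-92a-3p (0.29, SE 0.17, adjusted p = 0.133), miR-19b-3p (0.00, SE 0.23, adjusted p = 0.992) and miR-106b-5p (0.70, SE 0.35, adjusted p = 0.0734) were not called between methods. In control libraries alone miR-93-5p was no longer called (−0.40, adjusted p = 0.188), and in KA libraries alone miR-92b-3p was no longer called (0.52, adjusted p = 0.114). Of the opposite arms, 1 of 3 was called, miR-106b-3p, which was lower with the kit (−0.60, SE 0.24, adjusted p = 0.0277). miR-25-5p (−1.19, SE 0.54, adjusted p = 0.0509) and miR-92a-1-5p (−1.36, SE 0.63, adjusted p = 0.056) were not. Against the 66.2% of all miRNAs called, the cell type markers called were 2 of 2 tested endothelial miRNAs (both higher with the kit, miR-126a-5p by 3.28 on the log2 scale), 3 of 4 neuronal (higher), 2 of 3 oligodendrocyte (lower, miR-219a-2-3p by −3.08), 1 of 1 choroid plexus (higher), 1 of 1 smooth muscle and pericyte (higher), 0 of 2 leukocyte and microglia and 0 of 1 red blood cell miRNAs. Their part in the members' differences was not tested. Method and set of pools cannot be told apart.

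The ratio of the references to each other restates their method differences, given above, within single libraries. With UC, miR-25-3p had 0.903 to 2.19 times the reads of miR-92b-3p (median 1.20), and exceeded it in 10 of 12 libraries. With the kit, the ratio was 0.359 to 1.10 (median 0.700), and miR-25-3p exceeded miR-92b-3p in 1 of 12 libraries, Kit KA 2w replicate 2, with 410 against 373 reads. Over all libraries of a method, the summed reads gave a ratio of 1.25 with UC (670 to 537) and 0.730 with the kit (1675 to 2294). Since the members were chosen with earlier results known, this ratio is a description and was not tested.

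The SD of the log2 ratio over the 12 libraries was 0.33 with UC, where counting error alone would give 0.33, and 0.20 without UC KA 2w replicate 2, the library with the highest ratio. With the kit it was 0.49, where counting error would give 0.19. Among 151 partners with at least 10 reads in every UC library, miR-92b-3p was the 2nd most similar to miR-25-3p by this SD, after miR-410-3p (0.26) and before miR-30a-5p (0.36). For miR-92b-3p with UC, the nearest were miR-410-3p (0.28), miR-30a-5p (0.33) and miR-25-3p. With the kit, miR-92b-3p was only 56th of 195 partners of miR-25-3p, behind miR-221-3p (0.26), miR-27a-3p (0.27) and miR-30d-3p (0.28). The nearest to miR-92b-3p with the kit were miR-300-3p (0.30), miR-16-5p (0.32) and miR-92a-3p (0.33), and miR-25-3p was 73rd. All these values come from the same 12 libraries of a method.

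**Figure D3:**
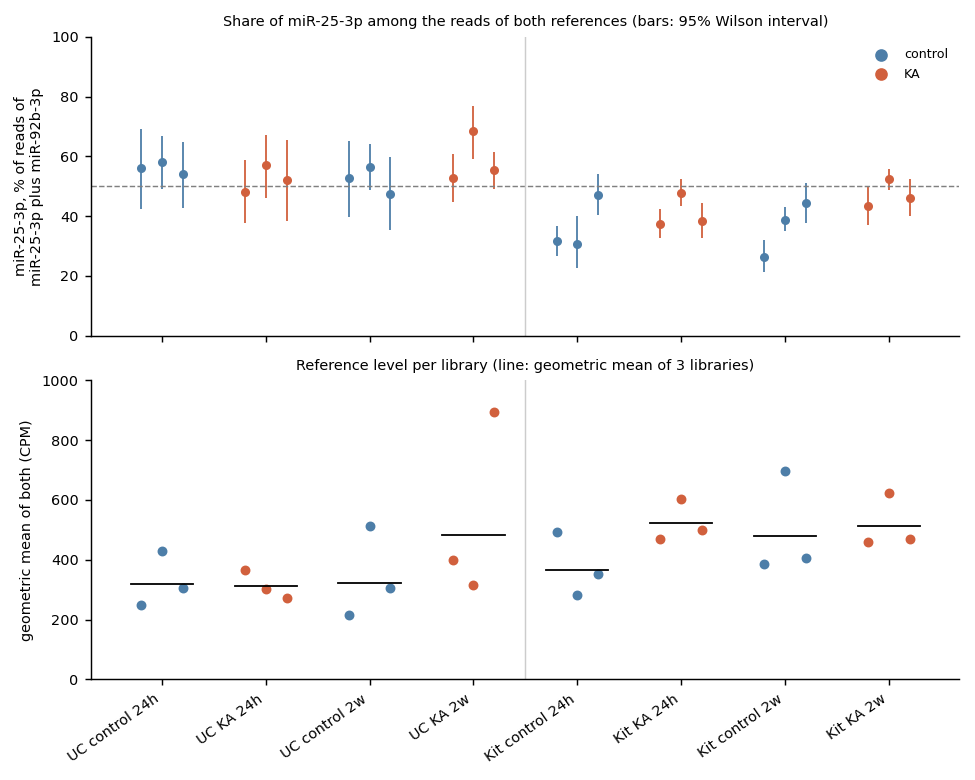
Upper panel, share of miR-25-3p in the reads of both references (y axis, percent) in each library by group (x axis), with 95% Wilson intervals and a dashed line at 50%. Lower panel, geometric mean of both references (y axis, CPM) with the geometric mean of each group as a line. In the upper panel 10 of 12 UC points lie above the dashed line and 11 of 12 kit points below it, and in the lower panel UC KA 2w replicate 3 is highest at 894 CPM.

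The geometric mean of both references, the quantity by which another miRNA would be divided, varied from 215 to 894 CPM over the UC libraries, a 4.16-fold range, and from 282 to 698 CPM over the kit libraries, a 2.48-fold range. Without UC KA 2w replicate 3, the highest UC value was 514 CPM. By group, the geometric means were 318 CPM in UC control 24h and 311 CPM in UC KA 24h, and 323 CPM in UC control 2w and 483 CPM in UC KA 2w. With the kit they were 366 CPM in control 24h and 522 CPM in KA 24h, and 478 CPM in control 2w and 512 CPM in KA 2w. The log2 difference between KA and control in this mean was −0.04 at UC 24h, 0.58 at UC 2w, 0.51 at Kit 24h and 0.10 at Kit 2w. It was 0.14 at UC 2w without KA replicate 3, and 0.32 at Kit 24h without control replicate 2, the shallowest kit library. These are descriptions of the scale in sequencing counts, with no test. The levels of the references in the study's qPCR were not examined here.

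Scaling all counts to the references in place of TMM moves all miRNAs by about the opposite of the reference difference given above. The shifts below restate that difference. At UC 2w it was 0.58, and 0.14 without KA replicate 3, and the scaling was not repeated without that library. The median log2 difference over all miRNAs tested became −0.49 at UC 2w (0.02 with TMM) and −0.44 at Kit 24h (0.09 with TMM), and changed little at UC 24h (0.09 against 0.06) and Kit 2w (−0.06 against −0.01). With this scaling 0 miRNAs were called at UC 2w where TMM called 4, and 1 at UC 24h where TMM called 2. At UC 2w, miR-92a-3p went from 0.57 to −0.18 and miR-93-5p from 0.13 to −0.47 on the log2 scale, and at Kit 24h miR-93-5p went from 0.06 to −0.46, none of them called under either scaling.

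Stability was summarised by M, the mean SD of a miRNA's log2 ratios to all others over the 12 libraries of a method, computed for miRNAs with at least 10 reads in every library and for members with at least 1 read in every library. Low values mean a steady miRNA. With UC, miR-25-3p had M = 0.682 and was 118th from the steadiest of 153, miR-92b-3p had 0.666 (112th), miR-92a-3p 0.670 (114th), miR-93-5p 0.621 (96th) and miR-19b-3p 0.835 (145th), where the median over all was 0.576. The 20 miRNAs nearest in level to miR-25-3p had a median M of 0.589, and those nearest to miR-92b-3p 0.610, so both references varied more than miRNAs of like abundance. Without UC KA 2w replicate 3, M fell to 0.542 for miR-25-3p (94th of 154) and 0.525 for miR-92b-3p (85th), with a median of 0.517.

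With the kit, 4 of 7 members with a value were steadier than the median miRNA of like level. miR-92a-3p had M = 0.488, 11th of 198, and miR-93-5p 0.509, 22nd. miR-92b-3p followed with 0.553 (61st), miR-25-3p with 0.632 (119th) and miR-19b-3p with 0.715 (162nd). The scarce miR-106b-5p had 0.669 (143rd) and miR-19a-3p 0.931 (192nd). Here the median over all was 0.605 and the miRNAs nearest in level to either reference had 0.657. After TMM scaling, the SD of log2 CPM over the kit libraries was 0.20 for miR-92a-3p, where counting error gives 0.16, and 0.52 for miR-25-3p, where counting error gives 0.15. The miRNAs with the lowest M were miR-101b-3p (0.448), let-7i-5p (0.461) and miR-541-5p (0.463) with UC and miR-1843a-5p (0.456), let-7i-5p (0.460) and let-7b-5p (0.462) with the kit. Of these, let-7i-5p stood among the 3 steadiest with both methods, at a lowest count of 1219 reads with UC and 3049 with the kit.

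**Figure D4:**
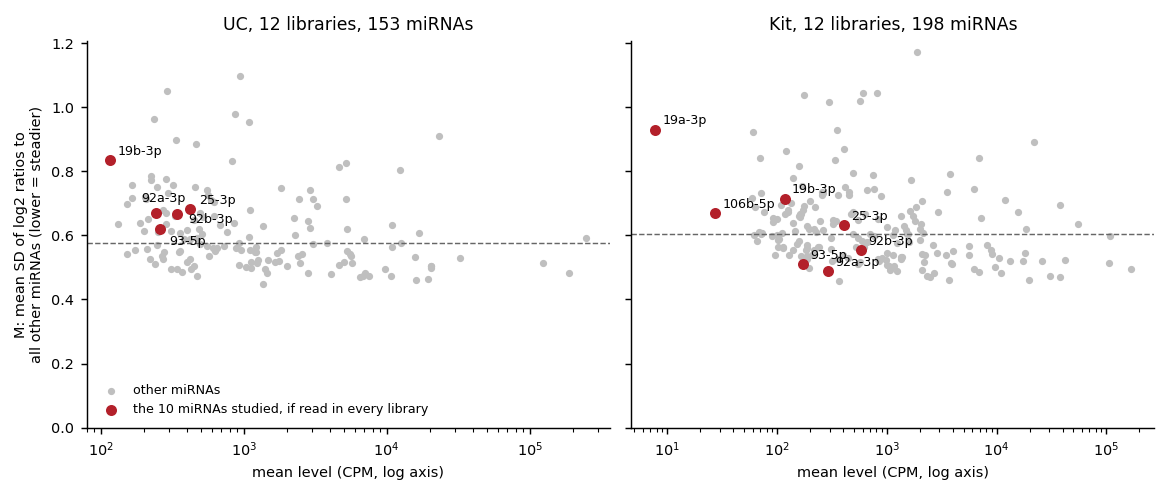
M (y axis, lower is steadier) against mean level (x axis, CPM, log axis) for all miRNAs with enough reads, with members in red and the median M as a dashed line. With UC the 5 members shown lie above the dashed line, and with the kit miR-92a-3p (0.488), miR-93-5p (0.509) and miR-92b-3p (0.553) lie below it.

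The counts also list bases added to the 3′ end of each read, and the members differed in these additions. miR-92a-3p carried an addition in 28.5% of its UC reads (95% Wilson interval 24.1 to 33.2, 107 of 376) and 25.1% of its kit reads (22.6 to 27.7, 283 of 1129). In miR-92b-3p, with nearly the same sequence, the shares were 10.1% (7.79 to 12.9) and 11.8% (10.5 to 13.2), and in miR-25-3p 4.63% (3.28 to 6.49) and 7.34% (6.19 to 8.69). miR-93-5p had 16.0% and 18.7%, and miR-19b-3p 5.14% and 7.82%. Intervals cover counting error only. Over all miRNAs, 10.9% of UC reads and 9.79% of kit reads carried an addition.

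The added bases differed as well. Of all miR-92a-3p reads, 19.9% with UC and 13.7% with the kit carried added adenosines only, and 1.06% and 1.15% uridines only. In miR-92b-3p uridines only made up 6.70% and 8.72%, and adenosines only 0.745% and 0.828%. In miR-25-3p uridines only (2.39% and 4.66%) were also the more frequent.

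Position 2 was listed for 100 of 107 additions of miR-92a-3p in UC libraries and 263 of 283 in kit libraries. The sources used here do not define that position, but if it is counted from the 3′ end of the mature miRNA, these reads run 2 bases into the hairpin before the addition. The bases that follow miR-92a-3p in its copies on chromosomes 14 and X are therefore shown, with the first 2 in capitals.
Mir92-1: uauugcacuugucccggccugUUga
Mir92-2: uauugcacuugucccggccugAGga
The counts do not say from which copy a read came.

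For the references, which had at least 20 reads in every library, the share of reads with an addition was compared between methods over libraries. miR-25-3p carried an addition in 4.06% of reads ± 3.66 (SD, n = 12) with UC and 8.57% ± 4.01 (SD, n = 12) with the kit, 4.51 percentage points more (two-sided permutation test, p = 0.00884, adjusted p = 0.0204 over 4 tests). UC libraries had 0 to 13.2% and kit libraries 3.70 to 16.7%, and the kit mean was higher in 4 of 4 combinations of treatment and time. In control libraries alone the difference was 5.27 points with an exact permutation p = 0.0779. Reads with any listed modification include these additions, which were 31 of 36 such UC reads and 123 of 132 such kit reads of miR-25-3p. Their shares, 4.62% ± 3.64 and 9.08% ± 4.16 (permutation p = 0.0102, adjusted p = 0.0204), are therefore not a separate result. In miR-92b-3p the shares with an addition were 9.99% ± 5.58 (SD, n = 12) with UC and 11.7% ± 3.98 (SD, n = 12) with the kit (permutation p = 0.41, adjusted p = 0.546). Whether the method difference itself differed between the references was not tested.

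**Figure D5:**
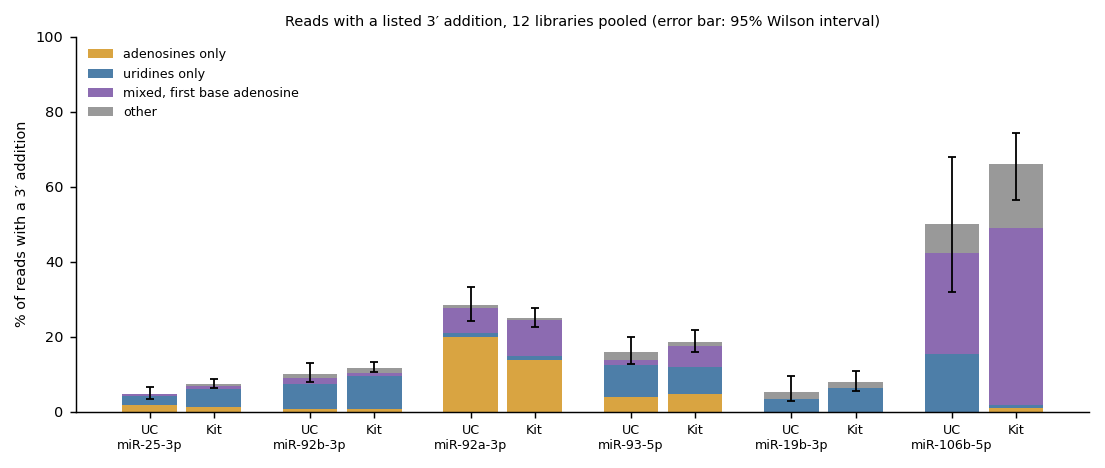
Percent of reads with a listed 3′ addition (y axis, from 0) for 6 members with UC and the kit (x axis), pooled over 12 libraries each, with colours for the kind of added bases and 95% Wilson intervals for the total. miR-92a-3p stands out for additions of adenosines only (19.9% and 13.7%) and miR-106b-5p for the size of its total (13 of 26 reads and 66.0%).

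In miR-106b-5p the listed additions were long. After its values were seen, additions of 5 or more bases were counted, and 62 of 106 kit reads (58.5%, 95% Wilson interval 49.0 to 67.4) and 9 of 26 UC reads (34.6%, 19.4 to 53.8) had one. Among 279 miRNAs with at least 100 kit reads, the median share was 0.920%, and miR-106b-5p ranked 7th. All 71 of these reads had a listed position below 0, and in 70 of 71 the added bases were A or G except for the last. Over all 24 libraries, 14 of 35 reads of miR-20a-5p, 10 of 40 of miR-17-5p and 32 of 1042 of miR-93-5p had a long addition, all with a position below 0 and with A or G except for the last base. Long additions of any composition were listed in 6 of 2345 reads of miR-25-3p and 8 of 2831 of miR-92b-3p. Without such reads, miR-106b-5p had 61 reads in 24 libraries in place of 132. How these reads were assigned to the miRNA was not tested.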

How the data were processed

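Small RNA was sequenced from 24 EEF libraries (TruSeq small RNA kit, MiSeq). The authors trimmed the reads and mapped them to miRBase hairpins with Chimira and deposited whole-number counts of reads per mature miRNA and counts of reads per listed modification. The aligner settings and the handling of reads that match several hairpins are not given in the sources used here. From these counts, miRNAs above 1 CPM in at least 6 libraries of a method were kept, scaled by TMM and tested by edgeR's quasi-likelihood test (edgeR 4.0.16, R 4.3.3), fitted on all miRNAs in the 12 libraries of a method for KA and time, and on all 24 libraries for the method. Printed CPM use TMM factors over all 24 libraries from the 397 miRNAs that passed with both methods. Adjusted p-values are by Benjamini and Hochberg. DESeq2 1.42.0 and limma-voom (limma 3.58.1), other scalings, filters, a replicate block and the omission of each library were tried. Modification shares were compared by permutation (scipy 1.17.1). The scripts were tested on simulated data.

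Libraries were grouped by their titles. The labels number replicates 1 to 3 in every group without saying what a number shares. Same-numbered libraries were taken to deviate together where each of the 3 pairs had a correlation above 0.1. This held for KA and control at UC 2w (0.11 to 0.24) and Kit 2w (0.32 to 0.40). It also held for UC KA libraries at 2w and 24 h (0.13 to 0.16). In the other comparisons at least 1 pair fell short, though single pairs reached 0.38 in kit controls and 0.46 in Kit KA at 2w and 24 h. The members, the marker lists and the rule for named miRNAs (all members, and the 3 partners or steadiest miRNAs by the stated measure) were chosen with earlier results of these data known.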

Additional observations from a re-analysis of the deposited data

How the results depend on the processing

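Over all settings tried, 0 members were called for KA, time and their interactions, and the replicate block changed no call. With the block, miR-25-3p at UC 2w had a log2 difference of 0.79 (adjusted p = 0.448, edgeR). Between the methods 2 members were called with every library left out in turn, and 1 in control libraries only and 1 in KA libraries only. Scaled to the references, miR-92a-3p (−0.18) and miR-93-5p (−0.47) turned at UC 2w, and miR-93-5p (−0.46) at Kit 24h. At Kit 24h, miR-93-5p was also below 0 with RLE factors (−0.060), library size only (−0.056), DESeq2 (−0.061) and no filter (−0.046). At UC 24h, miR-92a-3p was −0.042 with limma-voom and −0.000333 with the replicate block, and at UC 2w miR-19b-3p was 0.085 with limma-voom. For Kit against UC, library size only gave 0.000786 for miR-25-3p and 0.036 for miR-19b-3p, which was 0.0089 with limma-voom and 0.033 with no filter.

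With the kit, M was 0.737 for miR-25-3p and 0.667 for miR-92b-3p over miRNAs with at least 1 read in every library, which adds scarcer partners. The median and the ranks were not computed with this setting, so it does not say how steady the references were beside others. The SD of log2 CPM in place of M was 0.518 and 0.344. In control libraries alone, the difference of miR-25-3p was 5.62 points for any modification and 5.27 for additions, neither passing. A minimum of 50 reads per library left no member for this test.

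Leaving out 1 library at a time turned the sign of these log2 differences, none of them called. At UC 24h the ranges were −0.36 to 0.026 for miR-25-3p, −0.36 to 0.28 for miR-92a-3p and −0.14 to 0.19 for miR-92b-3p. At UC 2w they were −0.19 to 0.87 for miR-92b-3p, −0.11 to 0.32 for miR-93-5p and −0.47 to 0.47 for miR-19b-3p. At Kit 24h they were −0.32 to 0.11 for miR-92a-3p, −0.11 to 0.15 for miR-93-5p and −0.78 to 0.035 for miR-19b-3p. For time they were −0.54 to 0.23 for miR-25-3p and −0.15 to 0.41 for miR-92b-3p in UC controls and −0.038 to 0.43 for miR-25-3p in Kit KA. For Kit against UC they were −0.19 to 0.029 for miR-25-3p and −0.17 to 0.13 for miR-19b-3p. For the interactions they were −0.19 to 0.70 for miR-92b-3p in Kit minus UC at 24 h, −0.20 to 0.84 for miR-92b-3p in 2w minus 24 h with UC and −0.50 to 0.067 for miR-25-3p in 2w minus 24 h with the kit. The cause of these changes was not tested. With UC, counting error alone gives an SD of 0.22 in log2 CPM of miR-25-3p, where the SD over libraries was 0.58.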
